A study of Rattus norvegicus with 14 samples.

Results

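The genes described here are the nuclear genes for the subunits of mitochondrial respiratory complexes II, III, IV and V in cultured rat hippocampal neurons and astrocytes. Members were taken by symbol: Sdha, Sdhb, Sdhc, Sdhd, Cyc1 and every symbol that starts with Uqcr, Cox4, Cox5, Cox6, Cox7, Cox8 or Atp5. A gene with such a symbol was kept where its normalized count averaged 10 or more in neurons or in astrocytes. The rule gave 45 genes, 4 of complex II, 9 of complex III, 15 of complex IV and 17 of complex V, out of 18239 genes listed for neurons and 31791 listed for astrocytes. All 45 reached the minimum in neurons. In astrocytes 44 did. Cox6a2, the heart and muscle form of a complex IV subunit, was listed at 0 in 5 of the 6 astrocyte libraries and at 1.1 in the other. The rule used no comparison between treatments.

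Neurons and astrocytes were cultured from hippocampi of embryonic day 18 Sprague Dawley rats. Every library came from cells kept in a medium with reduced supplements, the study's aging model (AM). For neurons AM was Neurobasal medium with less of its supplement, and for astrocytes another medium with charcoal-stripped serum. The cell types therefore also differed in medium. Neurons were in AM medium for 4 h and then for 16 h with ethanol vehicle (AM-Veh) or with 100 nM allopregnanolone (AM-Allo), 4 libraries each, numbered 1-1, 1-2, 2-1 and 2-2. Astrocytes, enriched from mixed glia by shaking, were in AM medium for 24 h and then for 24 h with vehicle or 100 nM Allo, 3 libraries each. Allopregnanolone (Allo) is a neurosteroid made from progesterone that acts on the GABA-A receptor. The labels do not say whether libraries of a group came from separate cultures or animals, so p-values measure the spread between these libraries, which may be technical.

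The respiratory chain of the inner mitochondrial membrane passes electrons from nutrients to oxygen and pumps protons as it does so. Complex II (succinate dehydrogenase) feeds electrons from the citric acid cycle into ubiquinone, complex III (the cytochrome bc1 complex) passes them to cytochrome c, complex IV (cytochrome c oxidase) passes them to oxygen, and complex V (ATP synthase) uses the proton gradient to make ATP. The core subunits of complexes III, IV and V include products of mitochondrial DNA, and the nuclear genes described here supply the rest, among them many small accessory subunits. Nuclear respiratory factor 1 (NRF1), ETS-family factors and YY1 are known to bind promoters of nuclear genes for the respiratory chain.

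Upstream sequence is shown for 4 of the members described below. Cox8a and Uqcrq were among the larger rises in AM-Allo astrocytes and have an ETS match. Atp5me, a smaller rise, has both an ETS and an NRF1 match. Cox7c was higher in AM-Allo astrocytes and lower in AM-Allo neurons. Other members with larger rises than Atp5me, such as Cox6b1, which has no match, are not shown. Each sequence is the 120 bases before the RefSeq start site on GRCr8, 5′ to 3′ on the gene's strand, with motif matches in capitals. Positions are chr1:213833624-213833743 (minus strand) for Cox8a, chr10:38089979-38090098 (minus strand) for Uqcrq, chr14:1464740-1464859 (plus strand) for Atp5me and chr2:18579171-18579290 (minus strand) for Cox7c.
Cox8a: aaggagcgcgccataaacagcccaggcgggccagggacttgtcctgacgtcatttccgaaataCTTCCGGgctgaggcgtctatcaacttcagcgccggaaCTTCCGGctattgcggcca
Uqcrq: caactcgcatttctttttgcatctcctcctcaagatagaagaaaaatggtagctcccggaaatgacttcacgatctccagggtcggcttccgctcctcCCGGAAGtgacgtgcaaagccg
Atp5me: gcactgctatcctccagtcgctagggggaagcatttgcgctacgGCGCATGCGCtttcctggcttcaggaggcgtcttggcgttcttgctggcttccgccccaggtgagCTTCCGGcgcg
Cox7c: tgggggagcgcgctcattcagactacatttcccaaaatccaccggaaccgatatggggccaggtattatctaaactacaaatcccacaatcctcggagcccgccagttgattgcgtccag

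The motifs searched, on both strands, were GCATGCGC for NRF1, CCGGAAG for ETS factors and AAGATGGCG for YY1, in windows from 250 bases before to 50 after each start site. The NRF1 letters can match both strands at overlapping positions, as they do in Atp5me. Of the 45 members, 38 had a RefSeq promoter. The ETS letters were in 13 of these 38 (34.2%) against 9.22% of 27457 RefSeq promoters, the NRF1 letters in 6 (15.8%) against 2.66%, and the YY1 letters in 3 (7.89%) against 1.93%. Of the 11 windows of members that rose in AM-Allo astrocytes, 6 held the ETS letters, 2 the NRF1 letters and 1 the YY1 letters, and of the 27 others 7, 4 and 2 did, a split that was not tested. Cox7c had none of the 3 motifs in its window, which says only that these exact letters are not there. A match is a description of sequence and not a binding site.

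Astrocyte cultures expressed all 5 astrocyte markers in the list (Gfap, Aqp4, Aldh1l1, Slc1a3 and S100b), with the neuronal genes Rbfox3 and Tubb3 at mean normalized counts of 1.5 and 31.2, Map2 at 3712 and the mesenchymal collagen gene Col1a1 at 23823. The other mesenchymal markers did not all go with it: Col1a2 was at 29729 and Col3a1 at 9116, but Dcn at 4.7 and Lum at 9.5. In astrocytes the summed levels of the 6 marker lists overlapped between AM-Veh and AM-Allo, the mesenchymal list at 56593 to 67855 and 61382 to 64847. Neuron cultures expressed Map2 at a mean of 25621, Tubb3 at 9710.2 and Syt1 at 3994. They also expressed Gfap at 92703 and the oligodendrocyte lineage gene Olig1 at 14486, so the neuron libraries hold RNA of mixed neural cells. The astrocyte markers summed to 167859 to 228582 in neuron cultures and 212300 to 226041 in astrocyte cultures, in tables normalized separately. Slc1a3, S100b and Aldh1l1 had higher means in the neuron cultures, and Gfap and Aqp4 in the astrocyte cultures. Results given for neurons are therefore those of a mixed culture. Microglial markers summed to at most 29.3 in neuron cultures. Snap25 and Pecam1 were not analysed here in either cell type, and Itgam and Cldn5 not in neurons. In bulk RNA, fewer cells of a type and less RNA per cell cannot be told apart.

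The members together took 0.785% to 0.867% of the normalized counts in neuron libraries and 0.432% to 0.453% in astrocyte libraries. The 2 cell types were normalized separately, so these shares stand side by side without a test. Within the members' counts, complex V took 55.1% to 56.9% in neurons and 49.3% to 50.4% in astrocytes, and complex II 8.27% to 8.51% in neurons and 12.02% to 12.84% in astrocytes. Complex III took 15.8% to 16.03% in neurons and 14.9% to 15.4% in astrocytes, and complex IV 18.8% to 20.6% and 21.7% to 23.8%. These are shares of counts that were not corrected for transcript length, so they do not rank the complexes by number of transcripts. In each complex the gene with the highest count was Uqcrc2 (III), Cox4i1 (IV) and Atp5f1b (V) in both cell types, with Sdhc in neurons and Sdha in astrocytes for complex II.

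Allo against vehicle was tested within each cell type to ask whether Allo changed the transcripts of the respiratory complexes. In astrocytes, 14 of the 44 members tested rose with Allo at an unadjusted p under 0.05 (limma on log2 of the normalized count + 1), and none was lower. Their rises ran from 7.52% to 36.1%. They were Cox8a, Cox7c, Cox6b1, Cox7b, Cox7a2 and Cox6c of complex IV, Uqcrq, Uqcrb and Uqcr10 of complex III, and Atp5mg, Atp5me, Atp5pf, Atp5f1d and Atp5pd of complex V. In the same comparison 7.01% of the 15380 genes tested passed, 3.72% in the direction of a rise, against 31.8% of the members. With Benjamini-Hochberg adjustment across the whole table, 0.0065% of genes passed and none of the members did, and the adjusted p of the 14 ran from 0.241 to 0.709. All p-values given for single members are from limma and adjusted in this way unless called otherwise. Of all calls in this comparison 53.1% were rises, and 39% were with upper-quartile scaling, under which 12 members still rose and none fell. The median log2 difference was 0.02 over the 44 members and 0.00 over all genes tested.

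The study named 10 of these members (of complex V Atp5mg, Atp5pf and Atp5f1d, of complex III Uqcrq and Uqcr10, and the complex IV genes of the 14 other than Cox7c) from these same libraries, so that all 10 were higher here is not independent evidence of their direction. The other 4, Cox7c, Uqcrb, Atp5me and Atp5pd, were not among them. The plot of the difference for every member shows the 14 filled points of the astrocyte cultures to the right of 0, and a single filled point, Cox7c, to the left of it in the neuron cultures.

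**Figure D1:**
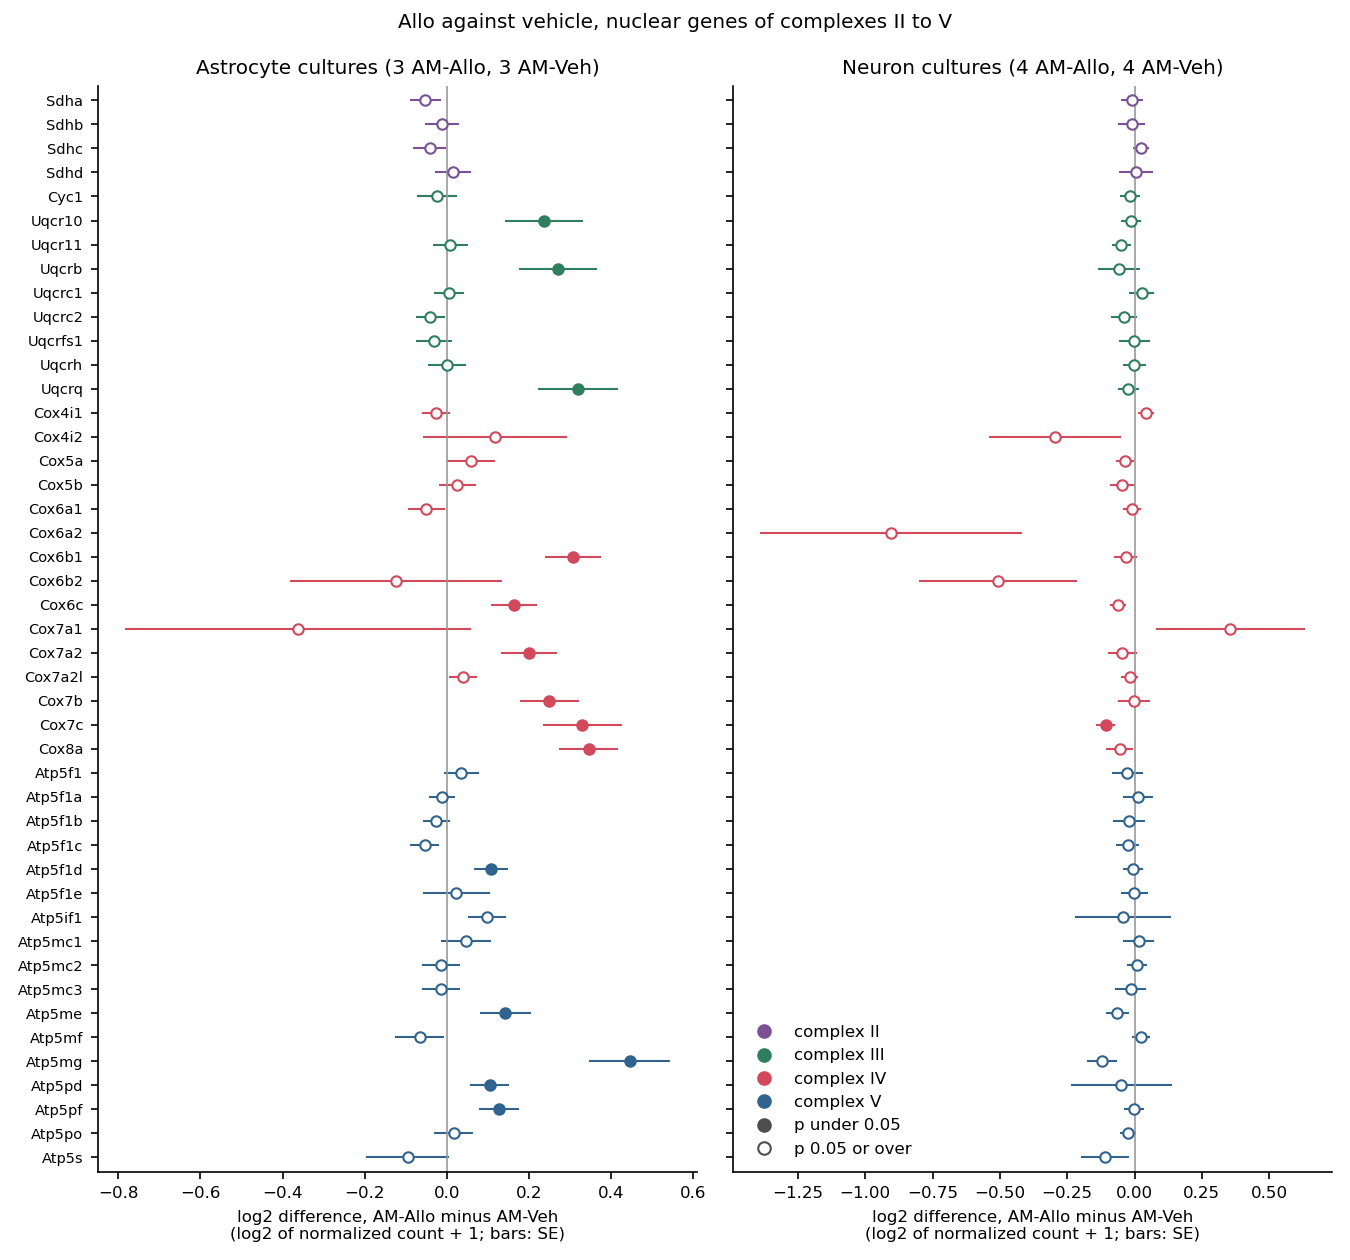
Log2 difference between AM-Allo and AM-Veh (x axis, log2 of the normalized count + 1) for each member gene (y axis), coloured by complex, in astrocyte cultures (left, 3 libraries against 3) and neuron cultures (right, 4 against 4). Bars are standard errors and filled points have an unadjusted p under 0.05: 14 members in astrocytes, all higher in AM-Allo, and 1 in neurons, lower in AM-Allo; the x scales of the panels differ.

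Complex IV held the most rises in astrocytes, 6 of its 14 members tested, with a median log2 difference of 0.09. Cox8a encodes subunit VIII, a single-helix accessory subunit. Its normalized counts were 1899.8, 1833 and 2074 in AM-Veh and 2141.5, 2690.2 and 2569 in AM-Allo. All AM-Allo libraries were above all AM-Veh libraries, AM-Allo 1 by the least, and the log2 difference was 0.35 (SE 0.07; limma adjusted p = 0.241). Cox6b1, a subunit on the intermembrane side that lies at the dimer interface, was at 1096, 1055.5 and 1089 in AM-Veh and 1179, 1400.4 and 1446 in AM-Allo. Again the groups did not overlap, and the difference was 0.31 (SE 0.07; limma adjusted p = 0.269).

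Cox7c, another small membrane subunit, was at 1751, 1717 and 1762 in AM-Veh and 1795, 2226 and 2634 in AM-Allo. The groups did not overlap, but AM-Allo 1 lay close to the highest AM-Veh library while AM-Allo 3 was far above it, and the log2 difference was 0.33 (SE 0.10; limma adjusted p = 0.488). Cox7b was at 790.4, 786 and 852 in AM-Veh and 878, 940.4 and 1078 in AM-Allo, a log2 difference of 0.25 (SE 0.07). Cox6c was at 1681, 1735 and 1551.5 in AM-Veh and 1790.2, 1781 and 1995 in AM-Allo, a difference of 0.16 (SE 0.06). Neither gene overlapped between groups. Cox7a2, the ubiquitous form of subunit VIIa, was at 971, 1055 and 960.4 in AM-Veh and 1019, 1212 and 1207 in AM-Allo, with AM-Allo 1 inside the range of AM-Veh.

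The other 8 complex IV members did not pass the test in astrocytes. Cox4i1, with the highest counts of the complex, was at 5385, 5607 and 5385 in AM-Veh and 5241, 5459 and 5378 in AM-Allo, with overlap. Cox4i1 and Cox5a, the ubiquitous subunits IV and Va that assemble early on the mitochondrially encoded core, had log2 differences of −0.03 (95% interval −0.10 to 0.05) and 0.06 (−0.07 to 0.18). Cox6a1, the ubiquitous form of subunit VIa, had −0.05 (−0.15 to 0.05). The lowest estimate was that of Cox7a1, −0.36, a gene at a mean normalized count of only 11.2 whose interval ran from −1.27 to 0.55.

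In complex III, 3 of 9 members rose in astrocytes, and the median difference over the complex was 0.01. Uqcrq, a small subunit near the ubiquinone site, was at 748, 793 and 784 in AM-Veh and 839, 1183 and 910.4 in AM-Allo. The groups did not overlap and AM-Allo 2 was the highest, with a log2 difference of 0.32 (SE 0.10; limma adjusted p = 0.498). Uqcrb, which also lines the ubiquinone site, was at 322, 278 and 321 in AM-Veh and 362, 339 and 411 in AM-Allo, with no overlap and a difference of 0.27 (SE 0.10). Uqcr10 was at 479.5, 542 and 545 in AM-Veh and 521, 681 and 655 in AM-Allo, where AM-Allo 1 fell inside the range of AM-Veh. Its difference was 0.24 (SE 0.09; limma adjusted p = 0.668). Cyc1 (cytochrome c1), Uqcrfs1 (the Rieske iron-sulfur protein), Uqcrc1 and Uqcrc2 (the core proteins) had differences between −0.04 and 0.01. Uqcrc2, with the highest counts of the complex, was at 3834, 3861 and 3898 in AM-Veh and 3660.2, 3880.4 and 3738 in AM-Allo, with overlap.

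In complex V, 5 of 17 members rose in astrocytes and the median was 0.02. Atp5mg, the membrane subunit g that takes part in pairing ATP synthases into dimers, had the largest rise of all members: 894, 847 and 921 in AM-Veh and 977, 1319 and 1367 in AM-Allo. The groups did not overlap, and AM-Allo 2 and 3 lay far above AM-Allo 1. Its log2 difference was 0.44 (SE 0.10; limma adjusted p = 0.269). Atp5me, subunit e and its partner in the dimer, was at 772, 808.5 and 744 in AM-Veh and 806.5, 922 and 839.6 in AM-Allo, a difference of 0.14 (SE 0.06) with AM-Allo 1 below the highest AM-Veh library.

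Atp5pf and Atp5pd, both of the peripheral stalk, had differences of 0.13 (SE 0.05) and 0.10 (SE 0.05). Atp5po and Atp5f1, also of this stalk, had differences of 0.02 and 0.04 and did not pass. Atp5pf was at 1169, 1276 and 1193 in AM-Veh and 1301, 1302 and 1369.9 in AM-Allo, without overlap. Atp5pd was at 1703, 1813 and 1659 in AM-Veh and 1791, 1938 and 1834 in AM-Allo, with AM-Allo 1 inside the range of AM-Veh. Atp5f1d, the delta subunit of the central stalk, was at 2256, 2373 and 2354 in AM-Veh and 2411, 2567 and 2545.5 in AM-Allo, a difference of 0.11 (SE 0.04) without overlap.

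Atp5f1a and Atp5f1b, the alpha and beta subunits of the catalytic head, differed by −0.01 (95% interval −0.08 to 0.05) and −0.03 (−0.10 to 0.04). Atp5f1b was at 13973, 14632.5 and 14370.1 in AM-Veh and 14144, 14109 and 13970.0 in AM-Allo, with overlap. The 3 genes for the c ring, Atp5mc1, Atp5mc2 and Atp5mc3, had differences of 0.05, −0.01 and −0.01. Atp5if1, the inhibitor that binds ATP synthase when it runs in reverse, was above every AM-Veh library in every AM-Allo library but did not pass the test, with a difference of 0.10 (limma adjusted p = 0.723). Atp5f1c, the central shaft, was the 1 member whose AM-Allo libraries all lay below AM-Veh, with a difference of −0.05 (limma adjusted p = 0.808). Atp5s, which codes for a coupling factor, had the lowest estimate of the complex, −0.10 (95% interval −0.31 to 0.12).

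No member of complex II passed in astrocytes. Its flavoprotein gene Sdha was at 5860.3, 6137 and 5727 in AM-Veh and 5620.4, 5896 and 5574 in AM-Allo. The groups overlapped, and the log2 difference was −0.05 (95% interval −0.13 to 0.03). Sdhb, Sdhc and Sdhd had differences of −0.01, −0.04 and 0.02.

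Counted by overlap alone, 11 of the 44 members had every AM-Allo astrocyte library above every AM-Veh library and 1 had every one below. Over all genes tested these shares were 6.42% and 6.07%. With 3 libraries in each group the exact two-sided permutation test of a single gene cannot give less than 0.1. Of the 14 members that rose, 10 did not overlap between groups. The counts of complex IV took 21.7% to 22.2% of the members' counts in AM-Veh and 22.5% to 23.8% in AM-Allo, and those of complex II 12.5% to 12.8% and 12.02% to 12.24%. Such shares restate the rises above, since a rise in some members lowers the share of the others. Of all counts, complex II took 0.05436% to 0.05646% in AM-Veh and 0.05336% to 0.05443% in AM-Allo, with overlap. Complex IV took 0.0954% to 0.0959% and 0.0981% to 0.1055%, without overlap.

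The rises rested mainly on AM-Allo 2 and AM-Allo 3. AM-Allo 1 was above every AM-Veh library in 10 of the 14 members, but it was the lowest of the AM-Allo libraries in 12 of them and the highest library in none. The median of the 14 over the AM-Veh mean, on the log2 scale, was 0.11 in AM-Allo 1, 0.27 in AM-Allo 2 and 0.30 in AM-Allo 3, while the AM-Veh libraries lay between −0.02 and 0.03. The plot of the 14 members by library shows this order.

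**Figure D2:**
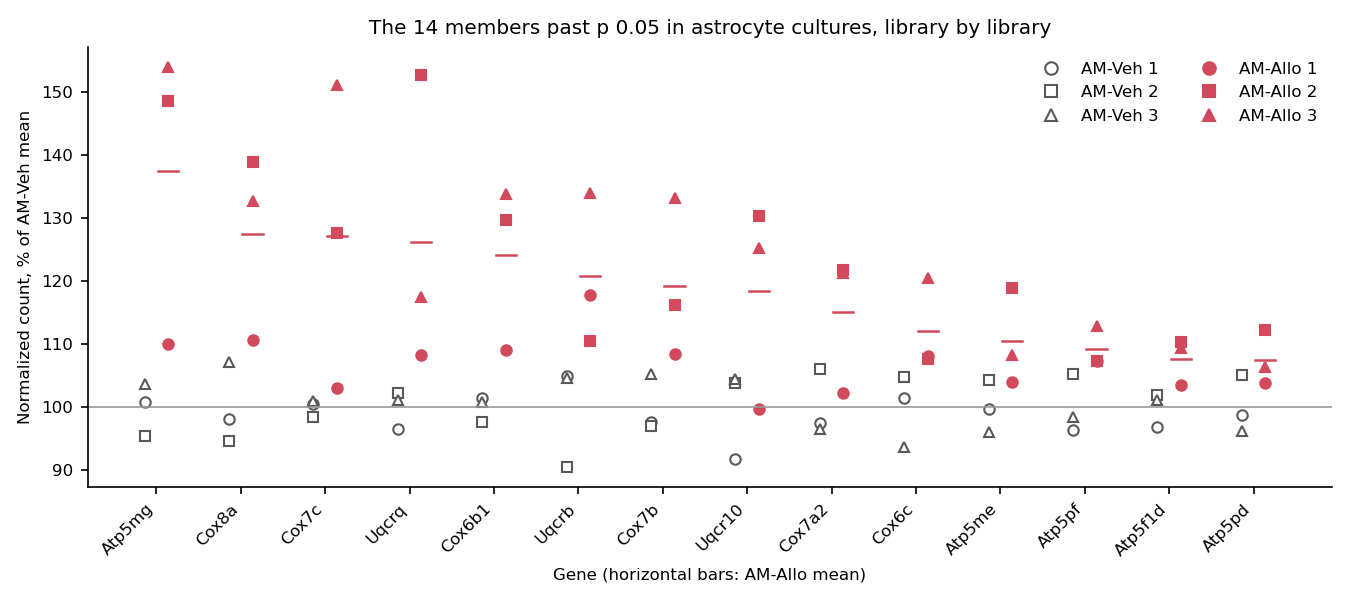
Normalized count as a percentage of the AM-Veh mean (y axis) for the 14 members past an unadjusted p of 0.05 in astrocyte cultures (x axis, ordered by log2 difference), with 1 symbol for each library (open, AM-Veh; filled, AM-Allo) and a bar at the AM-Allo mean. AM-Allo 2 and 3 lie above every AM-Veh library in all 14 members, and AM-Allo 1 in 10.

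AM-Allo 2 and 3 also stood apart in another way. A value below 10 in these tables is in most cases a whole multiple of what 1 read is worth. Within 0.15 of a read, 64.9% and 62.4% of such values were whole in AM-Allo 2 and 3, against 78.9% to 92.2% in the other 4 astrocyte libraries. The part of this property in the rises was not tested. Without AM-Allo 1 all 14 members passed, 4 of them after adjustment. Without AM-Allo 2, 9 of the 14 passed and the low-count gene Cox6b2 fell, and without AM-Allo 3, 8 of the 14 passed beside Atp5f1e and Atp5if1. Without AM-Veh 1 or AM-Veh 3, 9 passed in each case, and no member of the 14 changed sign in any of these fits. These leave-out counts are given without the share of all genes that passed, so they do not set the members apart from other genes. Without a trend of variance on level, 5 of the 44 members passed, beside 6.46% of all genes.

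Copies are a further limit on single members. RefSeq lists genes named as pseudogenes or copies of 10 of the 14 members that rose and of 16 of the 31 other members, with 11 for Atp5mg, and reads from such copies can be counted to the parent gene or the reverse.

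The rest of the respiratory chain was read from lists of complex I genes, mitochondrial DNA genes, assembly factors, cytochrome c and regulators. Of 45 complex I genes (symbols starting with Nduf) tested in astrocytes, 5 rose and none fell, with a median of 0.02. That is 11.1% of the list, beside 3.72% of all genes that passed as higher. These were Ndufb2 with a log2 difference of 0.33 (limma adjusted p = 0.524), Ndufab1 with 0.20 (limma adjusted p = 0.498), Ndufa4 with 0.13, Ndufb11 with 0.12 and Ndufc2 with 0.11. Ndufa4 is named for complex I but its product is known to sit in complex IV.

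Of the 6 mitochondrial DNA genes of complexes III to V, 3 fell in astrocytes and none rose, with a median of −0.10. Over all genes 7.01% passed in either direction. Mt-atp6, a membrane subunit of ATP synthase, was at 76421, 70764 and 70200.1 in AM-Veh and 67934, 63609 and 66780.0 in AM-Allo. The groups did not overlap, and the log2 difference was −0.13 (limma adjusted p = 0.529). Mt-cytb, the cytochrome b of complex III, had −0.11 (limma adjusted p = 0.627) and Mt-co3, subunit 3 of complex IV, −0.11 (limma adjusted p = 0.654), also without overlap. The other 3 did not pass, with −0.10 for Mt-co1, −0.10 for Mt-co2 and 0.06 for Mt-atp8, whose highest library was AM-Allo 3. Together these 6 genes took 2.51% to 2.73% of the counts in AM-Veh and 2.34% to 2.45% in AM-Allo.

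Cycs, the somatic cytochrome c that carries electrons between complexes III and IV, fell in astrocytes. It was at 878, 905.0 and 939 in AM-Veh and 838, 841 and 764 in AM-Allo, without overlap and with a log2 difference of −0.16 (limma adjusted p = 0.611). Of 38 assembly factors tested, Cox15, needed to make heme a for complex IV, rose (0.12), and Sco1, which brings copper to complex IV, fell (−0.28), so that 5.26% of the list passed beside 7.01% of all genes. Of 10 regulators none passed. Nrf1 had a difference of −0.09, Tfam, the mitochondrial transcription factor, −0.09, and Ppargc1a −0.03. Of 68 cytosolic ribosomal protein genes, 13 rose and 1 fell, with a median of 0.00. The rises were 19.1% of this list, beside 3.72% of all genes. The plot of list medians by library sets these lists side by side.

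**Figure D3:**
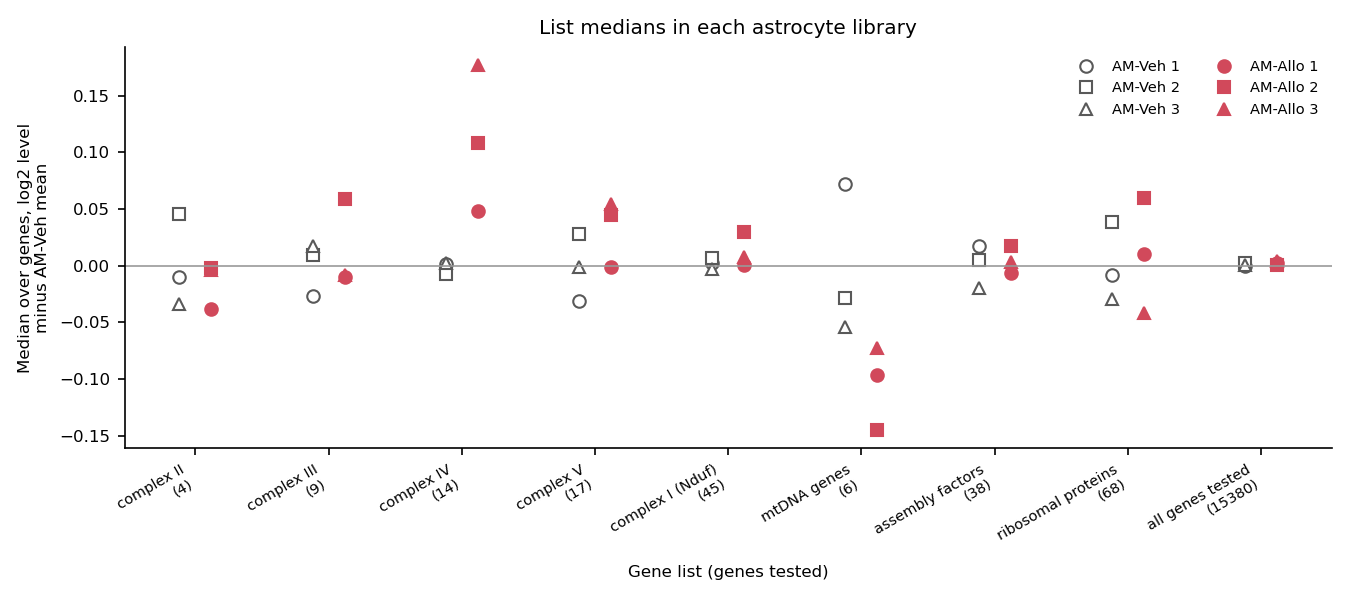
Median over the genes of a list of the log2 level minus the AM-Veh mean (y axis) in each of the 6 astrocyte libraries (open, AM-Veh; filled, AM-Allo), for the complexes, comparison lists and all genes tested (x axis, with the number of genes). Complex IV lies at 0.05, 0.11 and 0.18 in AM-Allo 1, 2 and 3, and the 6 mitochondrial DNA genes at −0.10, −0.14 and −0.07.

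In neurons, 1 of 45 members passed at an unadjusted p under 0.05 and was lower in AM-Allo, where 5.69% of the 15314 genes tested passed and 2.48% passed as lower. None passed after adjustment, as 0.0261% of all genes did. That member was Cox7c. Its normalized counts were 3145, 3077, 3267.5 and 3173 in AM-Veh and 2869.6, 2932, 2880.4 and 3071 in AM-Allo. The groups did not overlap, with AM-Allo the lower, and the log2 difference was −0.11 (SE 0.03; limma adjusted p = 0.652; exact two-sided permutation p = 0.0286, the smallest this test can give). The differences within libraries numbered 1 and within those numbered 2 were −0.10 and −0.11.

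Cox6c was the other neuron member without overlap. It was at 2677, 2762, 2775 and 2663 in AM-Veh and 2571, 2627, 2600.2 and 2631 in AM-Allo, a log2 difference of −0.06 (SE 0.03; limma adjusted p = 0.88). The shares of all genes with every AM-Allo library below and above every AM-Veh library were 1.89% and 2.06%. No member had every AM-Allo library above AM-Veh. Atp5mg was at 1803.5, 1594, 1780.3 and 1745 in AM-Veh and 1544, 1562, 1509.5 and 1749 in AM-Allo, with overlap through AM-Allo 2-2 alone and a difference of −0.12 (SE 0.06; limma adjusted p = 0.876).

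With the first number of the replicate label as a block, 4 neuron members passed, all lower in AM-Allo, where 11.0% of all genes did. These were Cox7c (limma adjusted p = 0.129), Atp5mg (0.345), Cox6a2 (0.442) and Cox6c (0.448), so none passed after adjustment. Cox6a2 was at 28.0, 16.1, 17.8 and 29.1 in AM-Veh and 14.1, 3.0, 15.8 and 21.4 in AM-Allo. Its difference of −0.90 rested on few counts, and in the fit without the block, where it did not pass, the 95% interval was −1.98 to 0.17.

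Over the 45 neuron members the median log2 difference was −0.02, beside −0.00 over all genes tested, and 36 members had a negative estimate. So did 7784 of the 15314 genes tested, 31 of 45 complex I genes and 59 of 69 ribosomal protein genes. The highest estimate, 0.36 for Cox7a1, was again that of a gene near a count of 10 (95% interval −0.26 to 0.97). The medians were −0.00 for complex II, −0.02 for complex III, −0.04 for complex IV and −0.02 for complex V. For members at high counts the intervals were narrow: Atp5f1a 0.01 (95% interval −0.11 to 0.14), Uqcrc2 −0.04 (−0.15 to 0.07), Cox4i1 0.04 (−0.02 to 0.11) and Sdhc 0.02 (−0.04 to 0.09). Cox4i1 was at 6435, 6512.5, 6672 and 6806 in AM-Veh and 6835, 6632.5, 6981 and 6789 in AM-Allo. Sdhc was at 5537, 5572, 5639 and 5503 in AM-Veh and 5838, 5712, 5482 and 5594 in AM-Allo. In both genes the groups overlapped. The 14 members that rose in astrocytes had neuron estimates of −0.12 to −0.00. Whether the effect of Allo differed between the cell types was not tested, since tests were made only within a table. Of the 45 complex I genes tested in neurons 1 fell, Ndufs5 (−0.09), the mitochondrial DNA genes of complexes III to V had a median of −0.02 with none past the test, and Cycs had −0.09 (limma adjusted p = 0.948). Of the 38 assembly factors 1 fell, Fmc1 (−0.23), which serves the assembly of ATP synthase, of the 10 regulators none passed, and of 69 ribosomal protein genes 2 fell. None of the 10 members the study named in astrocytes passed in neurons.

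More neuron members differed between the first numbers of the replicate labels than between treatments. The labels do not say what the first number marks, and both numbers hold 2 AM-Veh and 2 AM-Allo libraries. With treatment in the model, 24 of 45 members differed between libraries numbered 2 and 1 at an unadjusted p under 0.05, against 29.3% of all genes, and 22 of them were lower in those numbered 2, against 14.1% of all genes. After adjustment 16 members passed, against 17.2% of all genes.

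Atp5pd, of the peripheral stalk of ATP synthase, was at 3910.4, 3713, 3698 and 3718 in the libraries numbered 1 (AM-Veh 1-1 and 1-2, then AM-Allo 1-1 and 1-2) and at 2645, 2437, 2359 and 2523 in those numbered 2. The ranges were far apart, with a log2 difference of −0.59 (SE 0.03; limma adjusted p = 1.46e-08), −0.59 within AM-Veh and −0.60 within AM-Allo. Atp5if1, the ATP synthase inhibitor, went the other way, at 1486, 1497, 1322 and 1356 in libraries numbered 1 and 1999, 2059, 2098 and 2164 in those numbered 2, a difference of 0.56 (SE 0.04; limma adjusted p = 3.07e-07). Atp5f1e, the epsilon subunit, was the other member higher in libraries numbered 2 (0.12).

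The remaining differences were smaller and lower in libraries numbered 2. Atp5f1b was at 33019, 32108, 33388 and 32373 against 30619, 29207, 28790.4 and 28767, without overlap, a log2 difference of −0.16 (SE 0.02; limma adjusted p = 0.000291). Sdhd, a membrane anchor of complex II, had −0.17, Uqcrfs1 −0.15, Uqcrc2 −0.13 and Atp5f1a −0.15. By complex, 3 of 4 members of complex II, 7 of 9 of complex III and 12 of 17 of complex V passed the unadjusted test, but 2 of 15 of complex IV, Cox5a (−0.06) and Cox5b (−0.09). Complex IV members such as Cox8a (0.03), Cox6c (0.00) and Cox6a1 (−0.01) had estimates near 0. Of the 24 members, 4 (Uqcrb, Atp5f1d, Atp5pf and Atp5pd) were among the 14 that rose in AM-Allo astrocytes. The plot of the differences between first numbers shows Atp5pd and Atp5if1 apart from the rest of complex V.

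**Figure D4:**
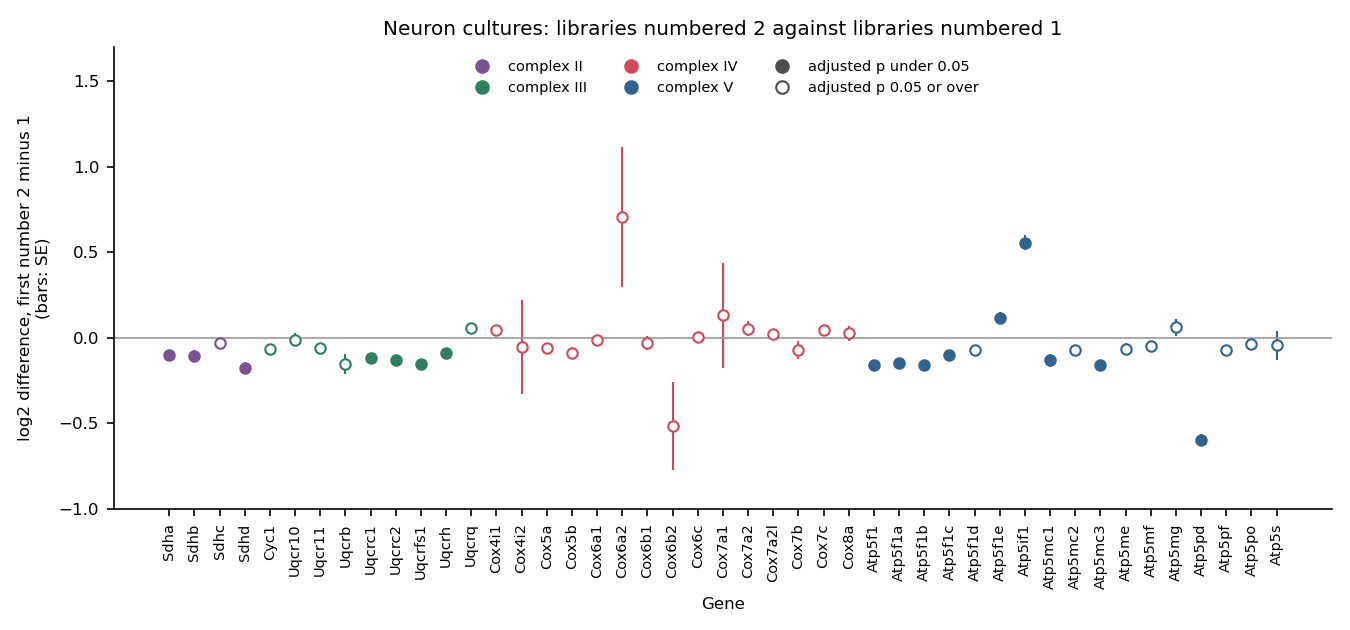
Log2 difference between neuron libraries numbered 2 and those numbered 1 (y axis, 4 libraries each, treatment in the model) for each member (x axis), coloured by complex, with standard errors as bars and filled points for an adjusted p under 0.05. Of the 16 filled points, 14 are below 0, Atp5pd lowest at −0.59, and Atp5if1 at 0.56 and Atp5f1e at 0.12 are above it.

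Several marker lists were apart between the first numbers. Astrocyte markers summed to 167859 to 178958 in libraries numbered 1 and 208818 to 228582 in those numbered 2, oligodendrocyte lineage markers to 39008 to 41827 and 34410 to 35107, and mesenchymal markers to 645.5 to 2206 and 226 to 348.5. Endothelial markers summed to 38.2 to 50.1 and 61.3 to 109.7 from 3 of 5 genes, and microglial markers overlapped. Neuronal markers overlapped, at 37798 to 40847 and 36609 to 43325. A sum can follow a single gene: over all neuron libraries Gfap ran from 68164 to 118740, and Slc1a3 from 57387 to 62381. Whether these sums reflect numbers of cells, and their part in the members' differences, was not tested.

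Some subunits come in tissue or condition forms from separate genes, and the ratio of 2 such genes within a library does not depend on the scaling of the library. Cox4i2, the form of subunit IV known from lung and low oxygen, stood to Cox4i1 at 0.00181 to 0.00322 in neuron libraries and 0.0122 to 0.0178 in astrocyte libraries. Cox6b2, the testis form, stood to Cox6b1 at 0.00758 to 0.0181 and 0.0362 to 0.0853. Cox7a1, the heart and muscle form, stood to Cox7a2 at 0.00365 to 0.00699 and 0.00741 to 0.0198. None of these 3 ratios overlapped between the cell types, with the higher values in astrocytes. Cox7a1 itself had similar mean counts, 11.9 in neurons and 11.2 in astrocytes, near the minimum of 10, while Cox7a2 was at 2480 and 1071. In neurons Cox4i2 and Cox6b2 were also low, at means of 15.4 and 23.5, so these ratios rest on few counts. Cox6a2 stood to Cox6a1 at 0.001 to 0.00786 in neurons.

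Cox7a2l, which joins complexes III and IV into supercomplexes, stood to Cox7a2 at 1.13 to 1.32 in neurons and 3.61 to 4.51 in astrocytes. For the c ring of ATP synthase, whose genes encode the same mature protein, Atp5mc2 stood to Atp5mc3 at 0.808 to 0.909 in neurons and 1.92 to 2.44 in astrocytes, and Atp5mc1 to Atp5mc3 at 0.372 to 0.413 and 0.426 to 0.469. These were ratios of counts not corrected for length, so a value above 1 does not rank the genes, and the cell types were not tested against each other. The plot of ratios shows each library.

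**Figure D5:**
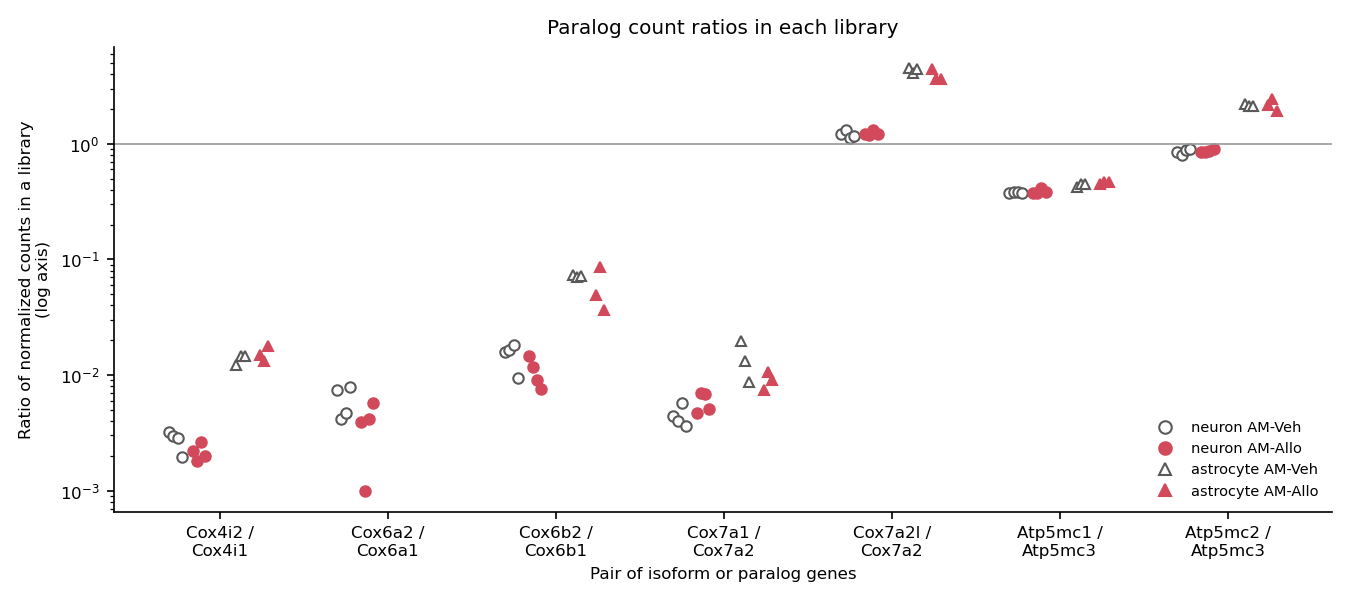
Ratio of normalized counts of 2 genes within a library (y axis, log scale) for 7 pairs of isoform or paralog genes (x axis), in neuron libraries (circles) and astrocyte libraries (triangles), open for AM-Veh and filled for AM-Allo. The ranges of the cell types do not overlap in the 6 pairs measured in both, and AM-Veh and AM-Allo overlap in each pair.

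Allo changed no ratio past the test. In neurons 7 pairs were compared by exact two-sided permutation, with the lowest p for Cox7a1 to Cox7a2 (log2 difference 0.40, p = 0.114, Benjamini-Hochberg adjusted p = 0.299 over the pairs, exact). In astrocytes 6 pairs were compared, the test could not go below 0.1, and the lowest p was 0.2, for Atp5mc1 to Atp5mc3 (log2 difference 0.06). Cox6b2 to Cox6b1 spread widely in AM-Allo astrocytes, from 0.0362 to 0.0853, beside 0.0706 to 0.0732 in AM-Veh.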

How the data were processed

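RNA was sequenced from 8 neuron and 6 astrocyte libraries (poly(A), stranded, paired ends). The authors quantified it with Salmon 0.14 against Ensembl transcripts, summed it to genes with tximport and normalized it with DESeq2 1.18.1, and the deposited signal is the normalized count per gene symbol. The authors' other tables hold variance-stabilized (VST) values on a log2-like scale, used as an alternative. In neurons the VST values were free of any difference between first numbers (largest 7.5e-09 over 18239 genes). Depth in reads is not given. Judged from the lowest values, 1 read was worth 0.842 to 1.13 normalized counts, so the precision of low genes is that of few reads.

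The log2 of the normalized count + 1 was used for the genes averaging 10 or more (15314 in neurons, 15380 in astrocytes), and treatments were compared within each table with limma 3.58.1 (lmFit, eBayes with trend) in R 4.3.3, with Benjamini-Hochberg adjustment over all genes tested. The same model with treatment and first number gave the comparison of first numbers. In neurons, libraries of equal number deviated together (correlations over genes 0.296, 0.229, 0.265 and 0.273). Those that share only the first number did so nearly as much (0.236, 0.185, 0.196 and 0.211). Between different first numbers the correlations were −0.319 to −0.15. Blocked values therefore stand beside results they change.

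Members, gene lists and tests were chosen with earlier results of these data known. Named were members past the unadjusted threshold, the highest count, largest rise and largest fall of each complex, the 10 members the study named, and the isoform pairs. Alternatives were other pseudocounts, filters, scalings, variance models, VST values, blocks and leaving out each library. Members without a promoter in the RefSeq table are Cyc1, Uqcr11, Uqcrb, Cox4i2, Cox6a1, Cox6c and Atp5pd. Where a symbol had several promoters the first was used.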

Additional observations from a re-analysis of the deposited data

Results flagged for a closer look

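Cox7b in the neuron library AM-Allo 2-1 was at 1785.8 normalized counts, far from the other AM-Allo libraries at 2115.3 to 2162. It was the 1 library so far from its group among 42 groups of 4 neuron libraries looked at, 1 group for each named member and treatment, where chance gives about 1 in 20.

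Cox6c and Cox7c had log2 differences of opposite sign in the cell types. In astrocytes all AM-Allo libraries were above all AM-Veh libraries, and in neurons all were below them. The log2 differences were 0.16 in astrocytes and −0.06 in neurons for Cox6c, and 0.33 and −0.11 for Cox7c. Neuron Cox6c did not pass the test, and the difference between cell types was not tested.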

How the results depend on the processing

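In astrocytes the count of members past the unadjusted threshold was 12 to 14 of those tested under 8 of the 9 other settings, all higher in AM-Allo. It was 5 without a variance trend, where 6.46% of all genes passed. When a library was left out it was 9 to 14. The share of all genes is not given for those 8 settings or the leave-out fits, so their counts do not set the members apart. Upper-quartile scaling kept 12 members higher, while 39% of all calls were higher in AM-Allo, against 53.1% of 1078. The astrocyte median was 0.01 to 0.03 throughout. In neurons the count rose from 1 to 2 with a pseudocount of 5, without a filter or with a robust fit, beside 5.7%, 5.53% and 5.63% of all genes. It rose to 3 with quantile normalization, beside 5.72%. With VST values it was 6 (5 lower and Cox4i1 higher) and with the whole number as a replicate block 3, where 14.4% and 10.7% of all genes passed, against 5.69%. It was 4 with a block by first number, on log2 or on VST values (11.0% and 11.1% of all genes), the last chosen after seeing the data. When a library was left out it was 1 to 3, given without the share of all genes. Cox7c passed in all 19 and Atp5mg in 10. VST values without a block leave the removed first-number difference out of the error. The cause of the other changes was not tested. The neuron median was −0.04 to −0.01. Members that differ between first numbers were 24 with a minimum mean of 50 and 17 to 27 when a library was left out, given without the share of all genes in those fits. In astrocytes the numbers did not pair the libraries (correlations 0.024, −0.007 and 0.012), and the replicate block gave 14. No pair ratio passed the test under any setting run. In astrocytes under every setting, and in neurons with the block, the exact test cannot reach 0.05. A correction for transcript length was not run, as no transcript lengths were at hand, and VST values give no value for the first numbers. Depth limits Cox4i2, Cox6a2, Cox6b2 and Cox7a1, whose means were under 100 counts.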

Other observations

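The difference between first numbers in the neuron cultures was also read in lists next to the members. Of 45 complex I genes, 19 passed the unadjusted test and 17 of these were lower in libraries numbered 2, with a median log2 difference of −0.06, the same to 2 decimals as that of the members. Of the 6 mitochondrial DNA genes of complexes III to V, 3 passed, all lower, with a median of −0.06. Of 69 cytosolic ribosomal protein genes, 37 were higher and 2 lower, with a median of 0.07. Over all genes tested 29.3% passed, 15.3% as higher and 14.1% as lower in libraries numbered 2.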
